A study of Mus musculus with 6 samples.

Results

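Rab proteins are small GTPases that sit on the membranes of a cell and give each compartment its identity. A Rab switches between a GTP-bound form, which recruits effectors to its membrane, and a GDP-bound form, which leaves the membrane. Exchange factors switch it on and GTPase-activating proteins switch it off. Rab5 acts on early endosomes and decides the first steps of receptor uptake, Rab4 and Rab11 return cargo to the surface, Rab7 carries it on to late endosomes and lysosomes, and other Rabs serve the endoplasmic reticulum, the Golgi apparatus and secretion.

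The Rab genes described here are all protein-coding genes whose symbol is Rab followed by a number and at most 1 letter. There were 59 of them among the 50600 genes of the count table, of which 21764 were protein-coding. They were measured in cardiac side population (SP) cells, which export a DNA-binding dye and were sorted from the heart by that property, out of cardiomyocyte-depleted and erythrocyte-depleted cell suspensions. The 6 RNA-seq libraries came from 3 paired sorts on 3 dates, each with a wild-type (wt, C57BL/6NRj) and an flt3L-/- library, and each library pooled the cells of 4 mice aged 8 to 12 weeks. The paper names the flt3L-/- strain C57BL/6Flt3Ltml/mx, without naming its C57BL/6 substrain. It is a knock-out of the gene for Flt3 ligand, and no treatment is given for either genotype. A pool of 4 mice is 1 replicate, so the spread between animals was not measured. Values are CPM, the usual measure of a gene's counts relative to all counts of its library, corrected with edgeR's TMM factors, and levels of different genes are compared only as CPM per kilobase of annotated exon (CPM/kb). Libraries are named by genotype and by sorting date 1 to 3.

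Depth was similar, with 24370913 to 31145519 counts a library, and 0.338% to 0.351% of them fell on Rab genes. A detection limit of 3 counts was 0.109 to 0.127 CPM, which covers counting error only. *Flt3l* itself had 8.67, 10.8 and 12.1 CPM in wt and 13.6, 12.4 and 14.4 CPM in the flt3L-/- libraries of dates 1, 2 and 3, so its reads were not lower in the libraries labelled flt3L-/-. Which part of the gene is deleted is not given in the sources used here, so counts over the whole gene may not check the genotype, and every direction given here rests on the labels. The 6 endothelial markers summed to 5469 to 7110 CPM in all 6 libraries. The 6 fibroblast markers summed to 5906 to 14593 CPM in wt and to 3117 to 9073 CPM in flt3L-/-, and the summed macrophage, lymphocyte and neutrophil markers also differed severalfold among libraries of 1 genotype. In bulk RNA, fewer cells of a type and less RNA per cell cannot be told apart.

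The gene on which most of what follows turns is *Rab5b* (ENSMUSG00000000711), 1 of 3 Rab5 genes. On GRCm38 it lies at chr10:128677175-128696264 on the minus strand, *Rab5a* (ENSMUSG00000017831) at chr17:53479234-53507680 on the plus strand and *Rab5c* (ENSMUSG00000019173) at chr11:100715009-100738215 on the minus strand. Their coding sequences were 74.1% identical between *Rab5b* and *Rab5a*, 77.3% between *Rab5b* and *Rab5c* and 74.3% between *Rab5a* and *Rab5c*. A stretch of read length, 81 bases inside exon 5 of each gene's transcript, is printed for each gene. Among ungapped stretches inside 1 exon, it has the fewest positions that differ over the 3 genes together. Pairs of genes and reads across exon junctions were not searched in this way. Capitals mark the 17 positions at which the 3 genes are not all alike, and the stretches are chr17:53500388-53500468 (plus strand), chr10:128681387-128681467 (minus strand) and chr11:100716759-100716839 (minus strand).
Rab5a: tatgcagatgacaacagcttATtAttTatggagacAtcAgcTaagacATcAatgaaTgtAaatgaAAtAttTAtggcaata
Rab5b: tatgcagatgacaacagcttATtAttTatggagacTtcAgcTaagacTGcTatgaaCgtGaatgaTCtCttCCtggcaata
Rab5c: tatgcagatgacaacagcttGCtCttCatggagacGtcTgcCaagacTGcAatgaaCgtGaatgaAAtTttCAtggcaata

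In this stretch *Rab5b* differed from *Rab5a* at 11 and from *Rab5c* at 12 of 81 bases. The longest run of identical bases between any 2 of the coding sequences was 35, and 0 windows of 81 bases were shared, so no full read of one gene could have been counted on another without mismatches. *Rab5b* does have a near-copy elsewhere. The processed pseudogene Gm13991 (ENSMUSG00000081787), at chr2:116527843-116528490 on the minus strand, is 648 bases long and matches the whole coding sequence of *Rab5b* with 4 differing bases, or 99.4% identity. It holds the *Rab5b* stretch printed above without a change. A second stretch, from exon 6 of *Rab5b* (chr10:128679565-128679645, minus strand) and from Gm13991 (chr2:116527878-116527958, minus strand), holds 2 of the 4 differences, in capitals.
Rab5b: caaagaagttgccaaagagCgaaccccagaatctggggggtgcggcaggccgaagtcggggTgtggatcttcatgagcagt
Gm13991: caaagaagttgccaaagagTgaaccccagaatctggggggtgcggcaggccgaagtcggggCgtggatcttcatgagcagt

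The authors placed reads with several equally good positions at random among them, so reads from 309 of the 568 coding windows of *Rab5b* could be counted on either gene. These make up 7.50% of all 81-base windows in *Rab5b* transcripts. Counts of Gm13991 are therefore given beside those of *Rab5b*.

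*Rab5b* was lower in every flt3L-/- library than in every wt library. On dates 1, 2 and 3 it had 40.7, 35.8 and 32.9 CPM in wt and 18.4, 15.1 and 12.1 CPM in flt3L-/-. Every wt value exceeded every flt3L-/- value, so the groups did not overlap. The group means were 36.5 ± 3.97 CPM (SD, n = 3) and 15.2 ± 3.14 CPM (SD, n = 3), and the log2 fold change was -1.28 (SE 0.15). Within the dates the log2 difference was -1.15, -1.25 and -1.44. The unadjusted p was 0.000461 in edgeR's quasi-likelihood test, the fourth smallest of the 13475 genes tested, but the adjusted p over all genes was 0.973, so *Rab5b* was not called. *Rab5b* was already known from earlier results of these data to be among the genes with the smallest p-values. DESeq2's Wald test, run on the same counts and dates, gave an adjusted p of 3.6e-05 and edgeR's likelihood ratio test one of 0.0011, while the adjusted p stayed at 0.51 or above in the 11 other alternatives.

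The pseudogene was lower beside its parent. Gm13991 had 6.26, 6.25 and 6.29 CPM in wt and 3.79, 3.06 and 1.74 CPM in flt3L-/-, from 161, 161 and 169 against 104, 72 and 44 counts. It too was lower in each flt3L-/- library than in any wt library. It took between 12.6% and 17.1% of the summed counts of both genes in the 6 libraries. With its counts added to *Rab5b*, the sum was 47.0, 42.1 and 39.1 CPM in wt and 22.1, 18.1 and 13.8 CPM in flt3L-/-, and the log2 fold change was -1.27 (SE 0.16), close to that of *Rab5b* alone.

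Neither paralog separated the genotypes in this way. *Rab5a*, the most abundant of the 3, had 161, 151 and 117 CPM in wt and 170, 124 and 188 CPM in flt3L-/-. These ranges overlap, and the difference within a date was 0.08, -0.28 and 0.68 on the log2 scale. Its log2 fold change was 0.16 (SE 0.22, unadjusted p = 0.494 in edgeR's quasi-likelihood test), and *Pp2d1* shares 4.19% of its exon bases. *Rab5c* had 7.81, 9.27 and 10.6 CPM in wt and 9.36, 8.06 and 8.31 CPM in flt3L-/-, which also overlap. Its log2 fold change was -0.10 (SE 0.23, unadjusted p = 0.692 in the same test).

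**Figure D1:**
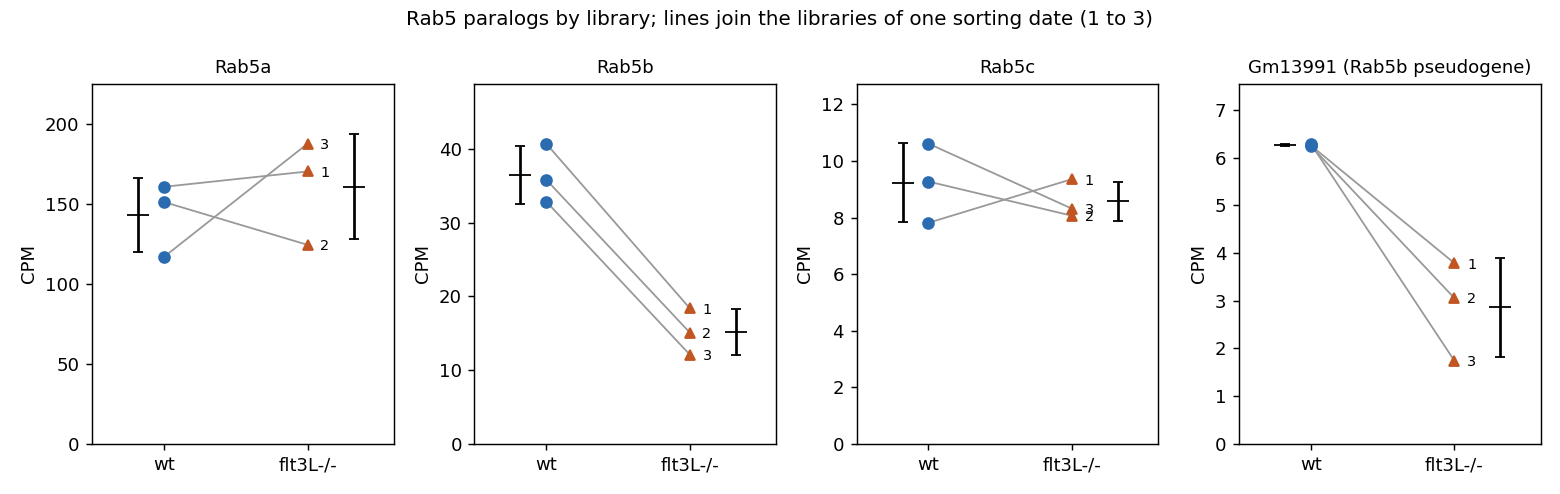
CPM of *Rab5a*, *Rab5b*, *Rab5c* and the *Rab5b* pseudogene Gm13991 in each library, with circles for wt, triangles for flt3L-/-, grey lines joining the libraries of 1 sorting date (1 to 3) and black bars for the mean and SD of 3 libraries. All 3 lines slope down for *Rab5b* (from 40.7, 35.8 and 32.9 to 18.4, 15.1 and 12.1 CPM) and for Gm13991, while those of *Rab5a* and *Rab5c* cross.

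The ratio of *Rab5b* to each paralog, which does not depend on library size, was lower in flt3L-/- on each date. Its log2 value against *Rab5a* differed by -1.23, -0.96 and -2.12 (mean -1.44, SD 0.61, n = 3 dates), and against *Rab5c* by -1.40, -1.05 and -1.09 (mean -1.18, SD 0.20, n = 3 dates). The exact permutation test within dates gave p = 0.25 for both ratios, two-sided, the smallest value that 3 pairs allow, and the unpaired exact permutation test gave p = 0.1 for both, the smallest that 3 against 3 libraries allow. Per kilobase, *Rab5b* supplied 22.2%, 20.6% and 22.5% of the Rab5 reads in wt and 10.7%, 11.6% and 6.80% in flt3L-/-. In wt its level lay above that of *Rab5c* in each library, at 9.69, 8.53 and 7.82 against 3.56, 4.23 and 4.84 CPM/kb. In flt3L-/- both genes were at like levels, with 4.37, 3.59 and 2.87 CPM/kb for *Rab5b* and 4.27, 3.67 and 3.79 CPM/kb for *Rab5c*. The 3 genes together gave 34.8 to 43.7 CPM/kb in wt and 30.9 to 42.3 CPM/kb in flt3L-/-, of which *Rab5a* was 63.6% to 84.2%.

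Over all Rab genes, 49 passed the filter of more than 1 CPM in at least 2 libraries and 10 did not. *Rab9b* had a count of 0 in all 6 libraries. *Rab17*, *Rab39*, *Rab3c*, *Rab33a*, *Rab38*, *Rab25*, *Rab42*, *Rab3b* and *Rab39b* had at most 29 counts in any library, and none of them reached 1 CPM in 2 libraries. *Rab25* and *Rab17* are best known from epithelia, *Rab38* from pigment cells, and *Rab3b* and *Rab3c* from neurosecretory cells. Just inside the filter were *Rab15*, above 1 CPM in 3 libraries, *Rab44* in 4 and *Rab40b* in 5. The rule on symbols and the filter used no difference between genotypes, but a gene near the filter can pass through the group in which it is high.

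The Rabs of the endoplasmic reticulum and Golgi were the most abundant group, with 40.8% of the summed CPM/kb of all Rab genes. Exocytosis and secretion Rabs had 17.7%, recycling endosome Rabs 14.4%, late endosome and lysosome Rabs 11.5%, early endosome Rabs 8.20% and the remaining Rabs 7.37%. *Rab2a*, which acts between the endoplasmic reticulum and the Golgi, led with 130 ± 12.1 CPM/kb (SD over 6 libraries). *Rab7* of late endosomes (92.5 ± 4.05 CPM/kb), *Rab6a* of the Golgi (91.6 ± 8.81 CPM/kb), *Rab10* of exocytosis (91.2 ± 9.16 CPM/kb) and *Rab11a* of recycling endosomes (80.9 ± 19.0 CPM/kb) came next, and these 4 differed by less than the SD of *Rab11a*. *Rab1b* (74.5 CPM/kb) and *Rab1a* (55.6 CPM/kb), which serve early secretory traffic, followed, and then *Rab31* (31.4 CPM/kb), *Rab18* (30.4 CPM/kb) and *Rab5a* (28.8 ± 5.15 CPM/kb), the first Rab5 gene. *Rab5b* ranked 30 and *Rab5c* ranked 35 of 59. The order depends on which exons are taken as the length of a gene. With the longest protein-coding transcript instead of all annotated exons, 8 of the first 10 were shared, *Rab14* moved from rank 17 to 8 and *Rab28* from 18 to 10.

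**Figure D2:**
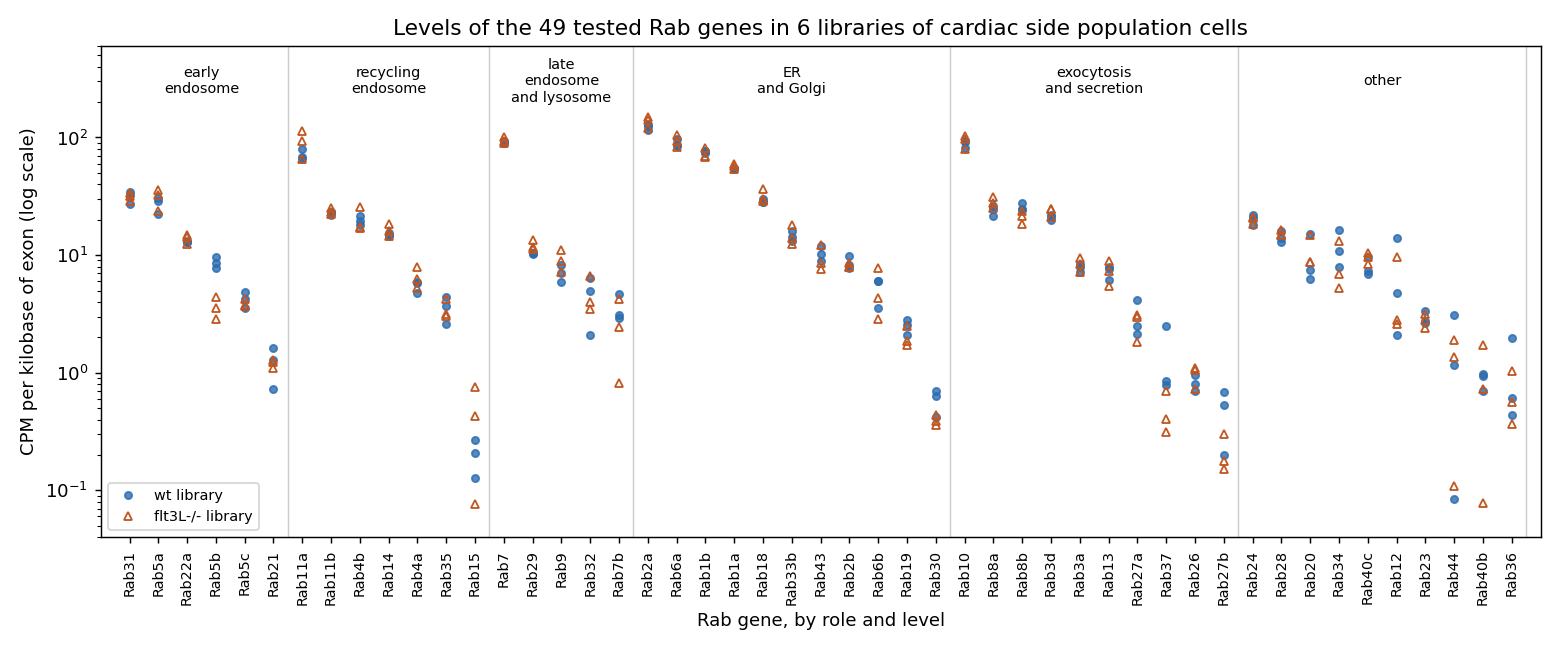
Level of each of the 49 tested Rab genes in CPM per kilobase of exon (log scale) in the 3 wt libraries (circles) and the 3 flt3L-/- libraries (triangles), ordered by role and level. *Rab2a* is highest at 130 CPM/kb on average, and in the early endosome group the wt and flt3L-/- symbols separate for *Rab5b*.

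Levels of most Rab genes were steady. The median coefficient of variation over the 6 libraries was 17.0% for the 49 tested members, against 20.4% for all genes tested. *Rab7* (4.38%), *Rab1a* (4.49%) and *Rab11b* (4.75%), a paralog of *Rab11a*, had the smallest values among the 20 most abundant members. Several abundant members have counts that cannot be fully assigned. *Rab43* shared 75.4% and *Rab4b* 65.0% of their exon bases with genes on the same strand. *Rab2b* shared 64.0%, *Rab24* 62.4%, *Rab20* 25.6%, *Rab6a* 19.0% and *Rab33b* 18.7% with genes on the opposite strand. A library type without strand cannot separate these. Near-identical processed pseudogenes held reads as well. In numbers of reads, which are not levels per length, Rab7-ps1 had 42.2 CPM beside 241 CPM for *Rab7*, and Rab11b-ps2 had 52.2 CPM beside 143 CPM for *Rab11b*. For 47 of the 59 members no 81-base window was found in a gene elsewhere.

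Between genotypes, 0 of the 49 tested Rab genes and 0 of all 13475 genes tested (0%) had an adjusted p under 0.05 in edgeR's quasi-likelihood test. The paper lists genes under that threshold from its own fit of these libraries, with *Rab5b* not among them. Why the 2 fits differ was not tested. At an unadjusted p under 0.05, 1 Rab gene (*Rab5b*) was lower, where 2.49% of all genes were, and 0 were higher, where 1.11% of all genes were. DESeq2 called 1 Rab gene, again *Rab5b*, of 21 genes called in all. The log2 fold change was below 0 for 23 and above 0 for 26 of the 49, with a median of 0.05, against 0.00 for all genes tested. Of the 49, 5 were lower on each of the 3 dates, beside 11.5% of all genes, and 6 were higher on each date, beside 14.2%. The flt3L-/- libraries lay wholly below the wt libraries for 3 members (*Rab5b*, *Rab8b* and *Rab37*), beside 2.92% of all genes, and wholly above for 1 (*Rab29*), beside 3.53%. Read against these shares, the counts of members say nothing particular about the Rab genes as a group.

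**Figure D3:**
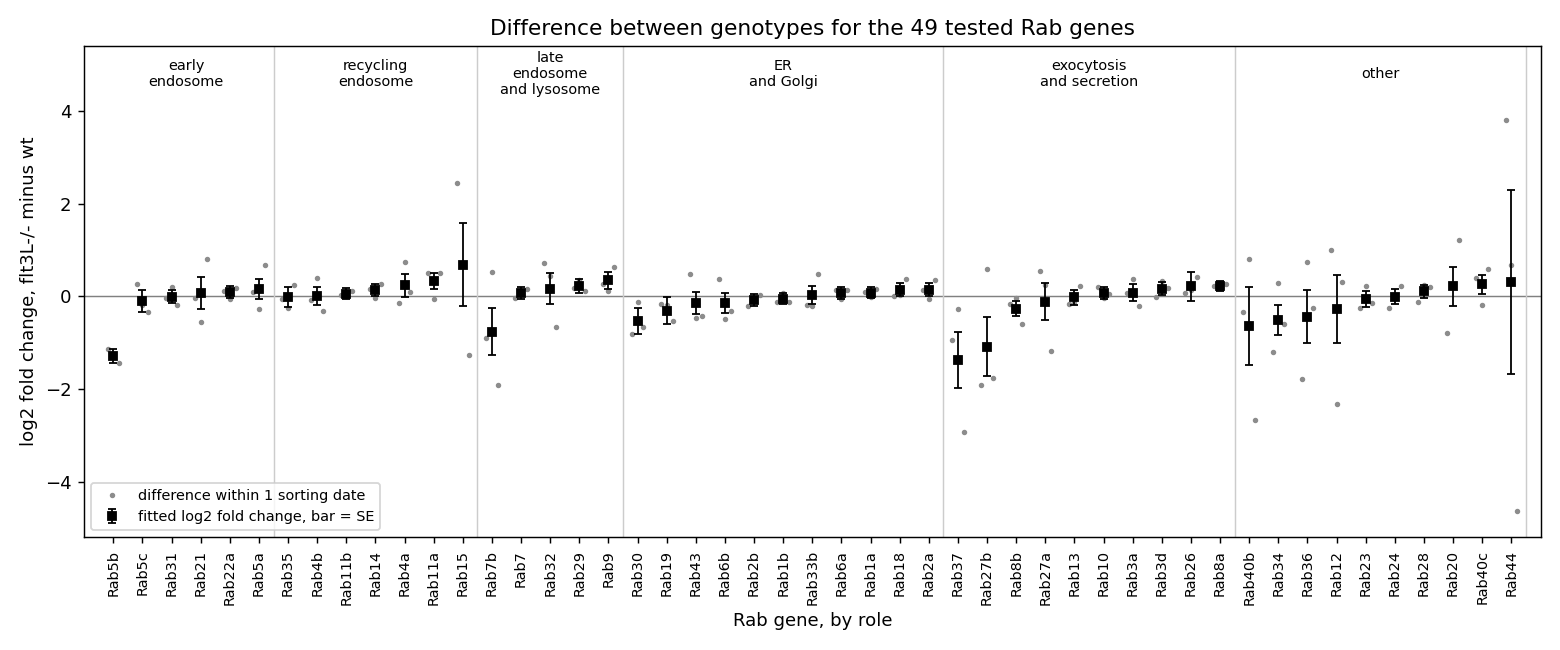
Log2 fold change (flt3L-/- minus wt) of the 49 tested Rab genes from edgeR, as squares with the SE, and the difference on each sorting date as grey points, grouped by role. Most genes lie near 0, *Rab5b* is at -1.28 with its 3 points close together, and *Rab37*, *Rab27b* and *Rab44* have points that scatter widely.

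In the early endosome group, *Rab31*, *Rab22a* and *Rab21* accompany the 3 Rab5 genes. *Rab31*, a relative of Rab5 in traffic between the Golgi and endosomes, had 132, 105 and 124 CPM in wt and 129, 120 and 109 CPM in flt3L-/-. *Rab22a*, which acts in sorting at early endosomes, had 94.7, 92.8 and 93.7 CPM in wt and 103, 89.6 and 107 CPM in flt3L-/-. Both sets of libraries overlapped. *Rab21*, linked to integrin uptake, was low, with 3.69 to 8.26 CPM in wt and 5.56 to 6.53 CPM in flt3L-/-. *Rab5b* was the 1 member of the 6 that was lower on each date, and the fold changes of the other 5 lay between -0.10 and 0.16 on the log2 scale.

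Among the recycling endosome Rabs, 7 of 9 were tested and 0 had an unadjusted p under 0.05, a count that beside the shares of all genes (2.49% lower and 1.11% higher) is too small to read. *Rab11a*, the main Rab of slow recycling, had 196, 205 and 238 CPM in wt and 279, 197 and 338 CPM in flt3L-/-, so that 2 of 3 flt3L-/- libraries exceeded every wt library. Its log2 fold change was 0.32 (SE 0.17, unadjusted p = 0.125 in edgeR's quasi-likelihood test), and 0.49 without date 2. *Rab11b* was nearly flat at 135 to 144 CPM in wt and 138 to 155 CPM in flt3L-/-. *Rab14*, which works between endosomes and the Golgi, had 196 to 209 CPM in wt and 198 to 250 CPM in flt3L-/-. *Rab4a* and *Rab4b* of fast recycling averaged 5.98 and 19.8 CPM/kb and *Rab35* averaged 3.52 CPM/kb, each with overlapping groups. *Rab15* was near the filter at 0.36 to 3.50 CPM.

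Of the late endosome and lysosome Rabs, 5 of 7 were tested and 0 had an unadjusted p under 0.05, which is again no result beside the 2.49% and 1.11% of all genes. *Rab7*, which drives the maturation of endosomes into lysosomes, had 242, 232 and 235 CPM in wt and 235, 244 and 261 CPM in flt3L-/-. *Rab9*, which returns receptors from late endosomes to the Golgi, was higher on each date, with 10.4, 14.3 and 12.4 CPM in wt and 12.5, 15.6 and 19.3 CPM in flt3L-/-, yet the groups overlapped. Its log2 fold change was 0.34 (SE 0.19, unadjusted p = 0.137 in edgeR's quasi-likelihood test), and 0.19 without date 3. *Rab29*, a lysosome-associated Rab that recruits the kinase LRRK2, had 15.1, 15.4 and 15.3 CPM in wt and 17.1, 19.6 and 16.6 CPM in flt3L-/-. The groups did not overlap, but the step was small, with a log2 fold change of 0.22 (SE 0.16, unadjusted p = 0.229 in the same test), and of 0.13 without date 2. *Rab32*, known from melanosomes and other lysosome-related organelles, ranged from 4.94 to 15.4 CPM with overlapping groups. *Rab7b*, a relative of *Rab7*, had 21.5, 13.6 and 14.3 CPM in wt and 11.4, 19.5 and 3.76 CPM in flt3L-/-.

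*Rab5b* was compared by date with the 17 other tested Rabs of the early, recycling and late endosome lists. Within these lists its log2 difference was the lowest on date 1 (-1.15, with *Rab7b* next at -0.91). It was the lowest on date 2 as well (-1.25, with *Rab21* next at -0.57). On date 3 *Rab7b* was lower, at -1.91 against -1.44 for *Rab5b*. The ranking depends on the lists. Rabs placed in other lists lay below *Rab5b* on date 1 (*Rab27b* at -1.91, *Rab36* at -1.79 and *Rab34* at -1.21). *Rab12* did so on date 2, at -2.33. *Rab5b* also had the smallest SE of the members whose log2 fold change was below -0.5. These values describe the same contrast in which *Rab5b* was known to have a small p-value, and no separate test was made of them.

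Outside the endosomes, the members with the smallest p-values after *Rab5b* were *Rab37*, *Rab30*, *Rab8a*, *Rab27b*, *Rab8b* and *Rab34*. *Rab37*, a Rab of secretory granules, had 4.20, 4.54 and 13.2 CPM in wt and 2.15, 3.73 and 1.66 CPM in flt3L-/-. It lay lower in each flt3L-/- library, and 1 wt library stood far above the rest. Its log2 fold change was -1.38 (SE 0.61, unadjusted p = 0.0762 in edgeR's quasi-likelihood test), and -0.62 without date 3. *Rab8a* and *Rab8b*, close relatives that carry vesicles to the plasma membrane, lay on opposite sides of 0. *Rab8a* had 101, 115 and 123 CPM in wt and 117, 131 and 147 CPM in flt3L-/-, higher on each date, and *Rab8b* had 116, 115 and 132 CPM in wt and 103, 112 and 87.6 CPM in flt3L-/-, lower on each date. Their log2 fold changes were 0.22 (SE 0.12) and -0.27 (SE 0.16), with unadjusted p-values of 0.124 and 0.156 in the same test, and the difference between them was not tested. Without date 3 the log2 fold change of *Rab8b* was -0.11. Gm20689, a processed copy of *Rab8b*, averaged 6.10 CPM.

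*Rab27b*, which docks secretory granules and exosome-bearing bodies, had 7.31, 2.13 and 5.66 CPM in wt and 1.89, 3.23 and 1.62 CPM in flt3L-/-. The lowest wt value lay inside the flt3L-/- range, and the log2 fold change was -1.09 (SE 0.63, unadjusted p = 0.147 in edgeR's quasi-likelihood test). It was -0.60 without date 1, -1.89 without date 2 and -0.69 without date 3. *Rab34*, linked to cilia and lysosome positioning, had 38.6, 25.6 and 19.0 CPM in wt and 16.6, 31.4 and 12.4 CPM in flt3L-/-. The Golgi Rab *Rab30* had 6.10, 4.07 and 6.78 CPM in wt and 3.46, 3.73 and 4.23 CPM in flt3L-/-, lower on each date but with overlapping groups. Their log2 fold changes were -0.51 (SE 0.32) for *Rab34* and -0.54 (SE 0.28) for *Rab30*, with unadjusted p-values of 0.175 and 0.116 in the same test. That of *Rab34* was -0.16 without date 1 and -0.94 without date 2. Without date 2, *Rab27b*, *Rab34*, *Rab37* and *Rab7b* joined *Rab5b* at an unadjusted p under 0.05, again with no adjusted p under 0.05. Without that date more genes over the whole table passed this threshold too, with the count given in the last section. The added members are therefore not read as a result about the Rab genes.

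Some Rab genes varied widely between libraries of 1 genotype. Of these, *Rab44*, *Rab12*, *Rab36* and *Rab20* were chosen after their values were seen. *Rab20* was not among the most variable, with a coefficient of variation of 37.1% against 46.9% for *Rab5b*. *Rab44*, a large Rab known from immune cells, had 0.43, 5.94 and 15.6 CPM in wt and 6.92, 9.55 and 0.55 CPM in flt3L-/-. It was low in wt 1 and flt3L-/- 3 and more than 10 times as high in the other 4 libraries. The summed neutrophil markers (*S100a8*, *S100a9*, *Ly6g*, *Mpo* and *Retnlg*) were also low in those libraries, at 0.93 and 2.57 CPM, and stood at 41.3 to 120 CPM in the other 4. The summed macrophage and monocyte markers were 25.7 and 30.3 CPM in those libraries and 77.6 to 243 CPM in the others. Not every marker followed its sum. *C1qa* was lowest in flt3L-/- 1 (0.036 CPM), below wt 1 (0.43 CPM) and flt3L-/- 3 (1.11 CPM). *Mpo* had 0.27 CPM in wt 1 and 0 CPM in wt 3. No marker of either list was at or under the detection limit in all 6 libraries. The part of these cells in the level of *Rab44* was not tested.

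*Rab37* was highest in wt 3 (13.2 CPM), where the summed macrophage (243 CPM) and lymphocyte markers (132 CPM, against 21.6 to 73.9 CPM elsewhere) were highest too, and their part was not tested. *Rab12*, which acts between recycling endosomes and lysosomes, had 14.6, 42.7 and 6.33 CPM in wt and 29.1, 8.44 and 7.88 CPM in flt3L-/-, an order that neither genotype nor date followed. *Rab36* was highest in wt 1 at 12.1 CPM and lay between 2.26 and 6.37 CPM in the other 5. The summed fibroblast markers (14593 CPM, of which *Dcn* gave 10551 CPM) and pericyte and smooth muscle markers (859 CPM) were highest in wt 1 as well. *Tcf21* was instead highest in flt3L-/- 2 (48.2 CPM against 46.2 CPM in wt 1). *Kcnj8* was highest in wt 3 (39.4 CPM against 23.4 CPM in wt 1), and the other markers of both lists were highest in wt 1. The part of these cells in the level of *Rab36* was not tested. *Rab20*, induced by interferon and low oxygen in other cells, had 21.0 CPM in wt 1 and 20.6 CPM in flt3L-/- 3 and 8.79 to 12.1 CPM in the other 4, the reverse of *Rab44*. *Rab5b* separated the genotypes, with a lowest wt value of 32.9 CPM and a highest flt3L-/- value of 18.4 CPM. The fibroblast, macrophage, neutrophil and lymphocyte sums each overlapped between genotypes, and their part in the level of *Rab5b* was not tested. Of the 10 marker lists, only the cardiomyocyte sum was separated, at 101 to 144 CPM in wt and 151 to 184 CPM in flt3L-/-, and its part in the level of *Rab5b* was not tested.

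**Figure D4:**
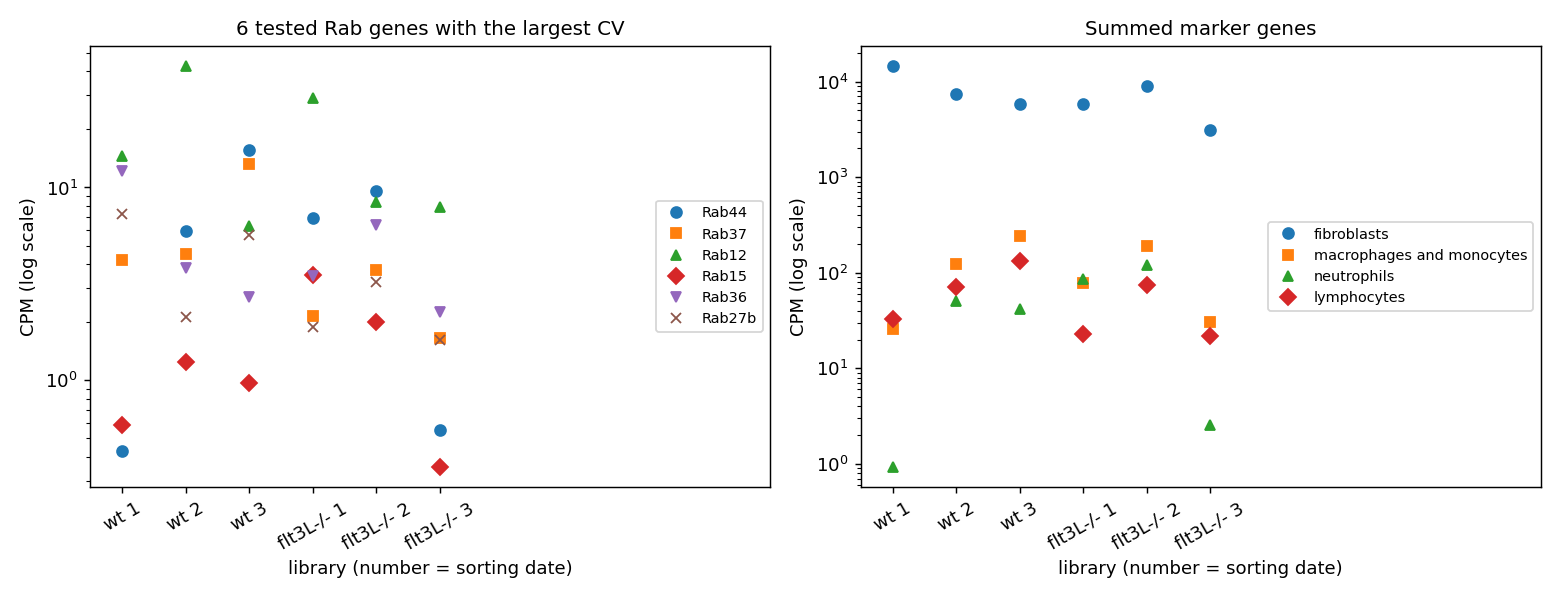
CPM (log scale) in each library of the 6 tested Rab genes with the largest coefficient of variation (left) and of the summed fibroblast, macrophage and monocyte, neutrophil and lymphocyte markers (right). *Rab44* is below 1 CPM in wt 1 and flt3L-/- 3, the 2 libraries in which the neutrophil markers sum to 0.93 and 2.57 CPM.

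The sorting date was tested as well, since the dates span 2016 and 2017. At an adjusted p under 0.05, 0 Rab genes and 0% of all genes differed between dates in edgeR's quasi-likelihood test. At an unadjusted p under 0.05, 1 of the 49 Rab genes did, beside 8.28% of all genes. This was *Rab6b*, a Golgi Rab best known from neurons, which averaged more on dates 1 and 2 than on date 3, with 30.3, 30.3 and 17.9 CPM in wt and 39.2, 21.6 and 14.4 CPM in flt3L-/- (unadjusted p = 0.0266). *Rab5b* had an unadjusted p of 0.136 for the date, although its level was lowest on date 3 and highest on date 1 in both genotypes.

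The machinery that acts on Rab proteins was examined with 96 listed regulators and effectors, of which 95 were tested. Among the most abundant per kilobase were *Rabac1* (95.2 CPM/kb), which helps to deliver prenylated Rabs to membranes, *Bicd2* (44.4 CPM/kb), which links *Rab6a* vesicles to dynein, *Dennd3* (37.9 CPM/kb), an exchange factor of Rab12, and *Sh3bp5* (33.9 CPM/kb), an exchange factor of Rab11. Their log2 fold changes were 0.11, 0.28, 0.08 and 0.24, with unadjusted p-values from 0.126 to 0.759 in edgeR's quasi-likelihood test. None of these 4 genes passed the test.

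Genes that act directly with Rab5 were counted as well. Of the 7 exchange factors, 3 GTPase-activating proteins and 14 effectors of Rab5 listed, all 24 were tested and 0 had an unadjusted p under 0.05. Beside the shares of all genes (2.49% lower and 1.11% higher), a count of 0 in 24 says nothing particular about these genes. The exchange factor *Rabgef1* (log2 fold change -0.06, SE 0.20), the tethering effector *Eea1* (-0.15, SE 0.14) and the adaptor *Appl1* (-0.15, SE 0.14) serve as examples. The exchange factor *Rin2* was lower on each date, with a log2 fold change of -0.34 (SE 0.18), and *Vps45*, listed with the effectors, was higher on each date, with 0.25 (SE 0.15). The interval spanned by all 24 genes was -0.34 to 0.33 on the log2 scale, against -1.28 for *Rab5b*.

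Over all 95 partner genes, 7 were lower and 0 higher at an unadjusted p under 0.05, beside the 2.49% and 1.11% of all genes given above, and 0 had an adjusted p under 0.05 in edgeR's quasi-likelihood test. The median log2 fold change was 0.02. Of these 7, *Sytl2* and *Sytl3* encode effectors that tie Rab27 vesicles to the plasma membrane. *Sytl2* had 12.5, 10.9 and 13.9 CPM in wt and 3.97, 5.73 and 2.53 CPM in flt3L-/-, with no overlap, and a log2 fold change of -1.67 (SE 0.36, unadjusted p = 0.00647). *Sytl3* had 5.56, 7.88 and 18.7 CPM in wt and 2.40, 4.29 and 1.31 CPM in flt3L-/-, with a log2 fold change of -1.90 (SE 0.69, unadjusted p = 0.0414), which was -1.04 without date 3. *Sytl3*, like *Rab37*, was highest in wt 3 and lowest in flt3L-/- 3. The lymphocyte markers summed to 32.5, 70.2 and 132 CPM in wt and to 23.1, 73.9 and 21.6 CPM in flt3L-/-, and their part in these levels was not tested. DESeq2 called *Sytl2* with an adjusted p of 0.049, and the adjusted p lay between 0.049 and 0.999 over all alternatives.

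The other 5 were 3 DENN-domain exchange factors, 1 GTPase-activating protein and 1 Rab7 effector. *Dennd4b* and *Dennd4c*, exchange factors of Rab10, had log2 fold changes of -0.76 (SE 0.27) and -0.63 (SE 0.18), and that of *Dennd4b* was -0.43 without date 3. *Dennd2a*, an exchange factor of Rab9, had 33.8, 24.6 and 7.15 CPM in wt and 24.5, 10.7 and 3.56 CPM in flt3L-/-. Its log2 difference was -0.47, -1.19 and -0.99 on the 3 dates. The study's own edgeR quasi-likelihood test of these libraries listed *Dennd2a* as lower at an adjusted p under 0.05, which the fit here did not. *Dennd2a* is named because of that list, so its value is not independent evidence. *Tbc1d4*, the GTPase-activating protein that holds back Rab8 and Rab10 until insulin signals, had 63.1, 31.1 and 27.4 CPM in wt and 27.8, 31.0 and 13.9 CPM in flt3L-/-, a log2 fold change of -0.73 (SE 0.28). *Fyco1*, which links Rab7 to kinesin, had 65.4, 63.2 and 57.7 CPM in wt and 49.1, 50.0 and 39.3 CPM in flt3L-/-, with no overlap and a log2 fold change of -0.44 (SE 0.13). The unadjusted p-values of these 5 genes were between 0.0091 and 0.0481 in edgeR's quasi-likelihood test.

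**Figure D5:**
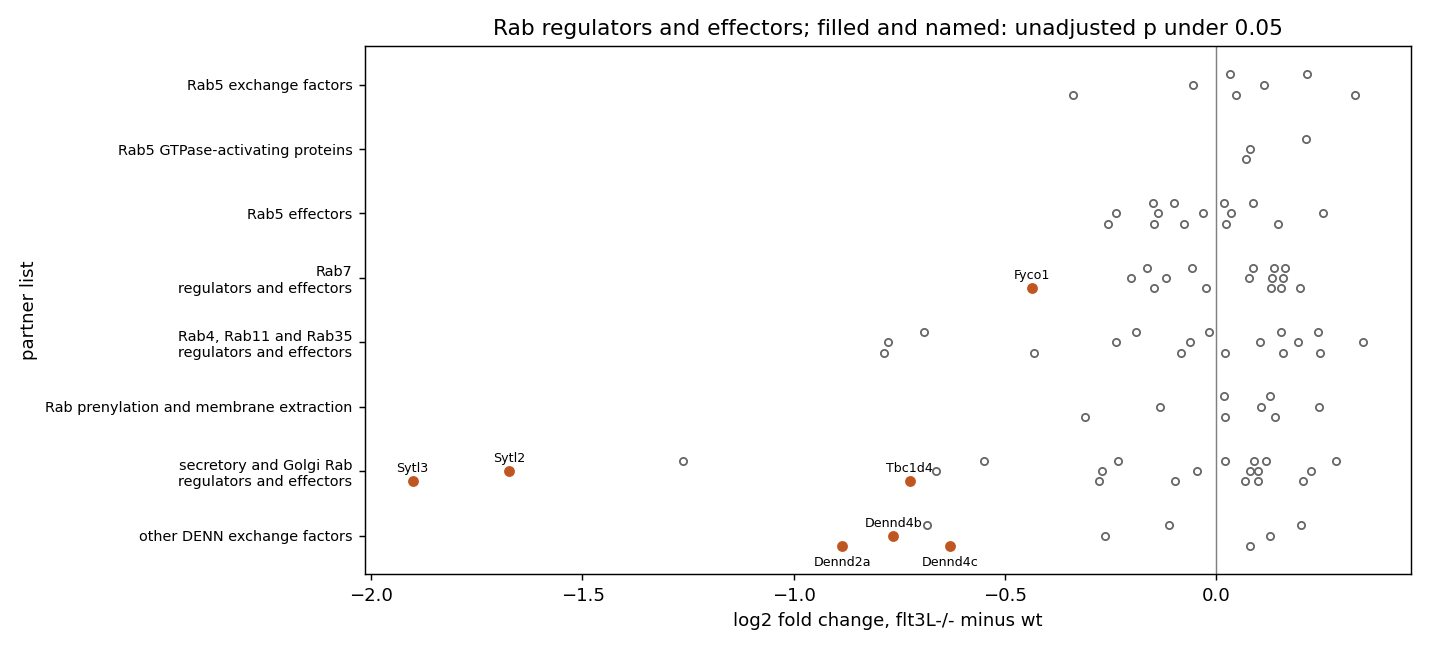
Log2 fold change (flt3L-/- minus wt) of the 95 tested regulators and effectors of Rab proteins, by list, with filled and named points for those with an unadjusted p under 0.05. The 24 Rab5 partners in the first 3 rows lie between -0.34 and 0.33, and all 7 named genes lie below 0.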

How the data were processed

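RNA of sorted cardiac SP cells was sequenced in 6 libraries. The authors deposited raw read counts per gene, without normalization. As the paper states, single-end reads of 81 bases from an unstranded low-input kit were mapped to mm10 with STAR 2.5.2a, at most 10 hits were allowed, and reads were counted with QuasR 1.18.0 on Ensembl release 88. Positions, biotypes, exons and transcript sequences came from GENCODE M21 on GRCm38.

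Protein-coding genes that exceeded 1 CPM in 2 or more libraries were tested in edgeR 4.0.16 on R 4.3.3 (TMM, glmQLFit and glmQLFTest, legacy = TRUE) with a term for each sorting date, and p-values were adjusted with Benjamini-Hochberg over all 13475 genes. Pair differences used a prior count of 2. The SE of a log2 fold change is its size over the root of F. The sorts were paired by date in the study, and after removal of the group means the same-date libraries correlated at 0.180, 0.104 and 0.116 across genes, against -0.354 to 0.247 for other dates. The script was tested on simulated data.

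The Rab genes, the role lists, the partner lists and the marker lists were chosen with earlier results of these data known. Named were the Rab5 genes, all endosomal Rabs, the 10 members highest per kilobase and the 10 with the smallest p-values, with the same for 5 partner genes (the result of 1 of them is not reported here), all genes with an unadjusted p under 0.05, *Dennd2a* and *Flt3l*. *Rab12*, *Rab20*, *Rab36*, *Rab44* and the partner genes given as examples were chosen after their values were seen. DESeq2 1.42.0 was run as an alternative.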

Additional observations from a re-analysis of the deposited data

How the results depend on the processing

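Of 13 alternatives, 11 were planned, and the addition of pseudogene counts and the likelihood ratio test were chosen after seeing the data. The log2 fold change of *Rab5b* lay between -1.32 and -1.26 with all libraries and between -1.35 and -1.20 without 1 date. DESeq2's Wald test called 21 genes, 1 Rab gene (*Rab5b*) and 1 partner gene (*Sytl2*), and edgeR's likelihood ratio test called 12 genes and 1 Rab gene (*Rab5b*). Rab genes lower at an unadjusted p under 0.05 numbered 2 (*Rab5b* and *Rab37*) with no filter, the Wald test, the likelihood ratio test or no replicate block. The members tested were 58 with no filter and 49 in the other settings named. The share of all genes lower in these settings is not given here, so the count is not read as a result about the Rab genes. Without the block by date, the partner genes lower at that threshold numbered 4. Over the whole table, lower and higher genes together numbered 262 of 13475. The block changed no adjusted call. Leaving out 1 date each gave 1 to 5 lower Rab genes and 3 to 9 partner genes at that threshold. Over the whole table, lower and higher genes together then numbered 249 of 13304 (without date 3) to 980 of 13111 (without date 2). These totals count both directions, so they are not the share of lower genes. For the sorting date, DESeq2's likelihood ratio test called 389 genes, 0 of them Rab genes, with 2 Rab genes at an unadjusted p under 0.05. Directions turned only when 1 date was left out, for 5 of the 34 genes recomputed: over the dates left out the log2 fold change ranged from -0.10 to 0.36 for *Rab5a*, from -0.28 to 0.029 for *Rab5c*, from -0.13 to 0.082 for *Rab31*, from -0.035 to 0.21 for *Rabac1* and from -0.25 to 0.24 for *Dennd3*. The ratio differences of *Rab5b* ranged from -1.68 to -1.10 against *Rab5a* and from -1.25 to -1.07 against *Rab5c*, and the prior count, the pairing and the counts of Gm13991 left their direction as it was. The causes of these shifts were not tested. With 2 residual degrees of freedom and pools of mice, only large and steady differences could pass the test, and genes near the detection limit carry counting error on top.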
